A study of Mus musculus with 4 samples.

Results

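The 10 genes described here encode the 5 subunits of the transcription factor NF-kB (Nfkb1, Nfkb2, Rela, Relb and Rel), 4 inhibitors of the IkB family (Nfkbia, Nfkbib, Nfkbie and Nfkbiz) and the ubiquitin-editing brake Tnfaip3. They were picked by gene symbol and are 10 of the 14818 genes with an m6A peak in the deposited tables. They hold 26 of 38697 peaks in the Mettl3 cKO list and 24 of 36507 in the WT list, 7 of 10355 differential peaks, and 6 of 7307 genes with an expression value.

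The study measured N6-methyladenosine (m6A), a methyl mark on adenosines of messenger RNA, in bone marrow-derived macrophages of C57BL/6 mice. The cKO cells carried Mettl3 fl/fl with LysM-cre, and the WT cells carried Mettl3 fl/fl without Cre. Loss of Mettl3 could not be checked here, since no input level of Mettl3 was analysed, so cKO and WT stand for the labelled genotypes. Mettl3 is the catalytic subunit of the main m6A writer, and LysM-cre is active in myeloid cells. Both groups had 7 days of M-CSF, a macrophage growth factor, and then 24 h beside MC38, a colon carcinoma line from mice. Only the cKO carries Cre, so an effect of Cre and an effect of Mettl3 loss cannot be told apart. Each genotype has 1 library of fragments bound by an m6A antibody (IP) and 1 library taken before the pulldown (input). There are no replicates, so every difference below is between single libraries and the spread between cultures is unknown. Read totals were not analysed here, so depth is unknown. How IP was scaled to input is not given in the sources used here, and a uniform drop in m6A could be hidden by that scaling.

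NF-kB proteins bind DNA as dimers of Rel-homology subunits and drive inflammatory genes in macrophages. In resting cells IkB proteins hold the dimers in the cytoplasm, and signals from Toll-like or cytokine receptors lead the IkB kinases to mark IkB for degradation. NF-kB in turn induces several of its own inhibitors, Nfkbia and Tnfaip3 among them, which end the response. The m6A mark is placed mostly within a short consensus around GGAC, often near stop codons.

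The sequences below are examples of motif matches in differential peaks and promoters of these genes. Enrichment was measured per peak, and no result rests on a single site. The first set gives GGAC, in capitals, within differential m6A peaks, read 5′ to 3′ on the transcript strand from GENCODE M21 transcripts (GRCm38, the same assembly as mm10). A match is a description of the letters and not a measured methylated base.
Tnfaip3, coding sequence, chr10:19004500-19004529, minus strand: tgcatgtattttgGGACtccagaaaacaag
Tnfaip3, 3' UTR, chr10:19002400-19002429, minus strand: gaaatgcgtgctaGGACtggcagcagttcc
Nfkbie, 3' UTR, chr17:45562219-45562248, plus strand: gatctggaaggaaGGACttcccaagtggcc
Nfkb2, 5' UTR, chr19:46304366-46304395, plus strand: tactggagtgttgGGACtgacccggtttcc
Nfkb2, 5' UTR, chr19:46304436-46304465, plus strand: caagtggcccactGGACtccgtaacggtcc
Nfkbia, 3' UTR, chr12:55489620-55489649, minus strand: gaacctaatgaaaGGACcacgttttattta

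The Tnfaip3 pair lies 526 bases before and 315 bases after the last base of the stop codon, inside a peak with 14 GGAC, of which 7 are GGACT. The Nfkbie site lies 165 bases after its stop codon, and the Nfkbia site, the single GGAC of its peak, lies 286 bases after. Both Nfkb2 sites are GGACT in the 5' UTR, and they are the 2 GGAC of that peak. The differential peaks of Nfkbiz and of the Rel transcript end held 0 GGAC, so no window is shown for them.

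The second set gives matches to the NF-kB (kappaB) consensus, in capitals, in RefSeq promoters (GRCm38.p6, 250 bases before to 50 after a start). They are shown because several of these genes are known targets of the factor they encode or restrain. Binding to these sites was not measured here.
Tnfaip3, chr10:19015403-19015432, minus strand: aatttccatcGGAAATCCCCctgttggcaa
Rel, chr11:23771041-23771070, minus strand: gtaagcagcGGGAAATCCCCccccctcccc
Nfkbia, chr12:55492657-55492686, minus strand: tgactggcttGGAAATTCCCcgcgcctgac
Nfkbie, chr17:45555584-45555613, plus strand: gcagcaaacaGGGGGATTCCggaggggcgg
Nfkb2, chr19:46304689-46304718, plus strand: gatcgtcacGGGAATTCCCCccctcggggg

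Of the 10 genes 7 had a promoter entry, and 5 of these 7 held at least 1 match on either strand, against 9.55% of 27025 genes and 8.46% of 32851 promoters. In the Rel and Nfkb2 windows, 2 overlapping matches are capitalised together. The letters were not found in the Rela and Nfkbib windows. Nfkb1, Relb and Nfkbiz had no entry.

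All 10 genes carried at least 1 m6A peak in each genotype. The enrichment of a peak is the authors' log2 of IP over input, so a value of 1 means that the IP holds 2 times the input. Over the 26 cKO peaks it ran between 0.60 and 2.77 with a median of 1.01, against 0.55 to 3.17 with a median of 1.05 over the 24 WT peaks. Over all peaks the median was 1.30 in the cKO and 1.22 in the WT, so the NF-kB genes lay somewhat below the typical peak in both lists. In each genotype 13 of the peaks were enriched at least 2-fold. At least 4-fold enrichment was seen for 2 peaks in the cKO (Tnfaip3 and Nfkbie) and for 3 peaks in the WT (Tnfaip3, Nfkbie and Rel). The medians over all peaks lie above the 2-fold value of 1. The exact shares of all peaks past either fold were not computed.

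**Figure D1:**
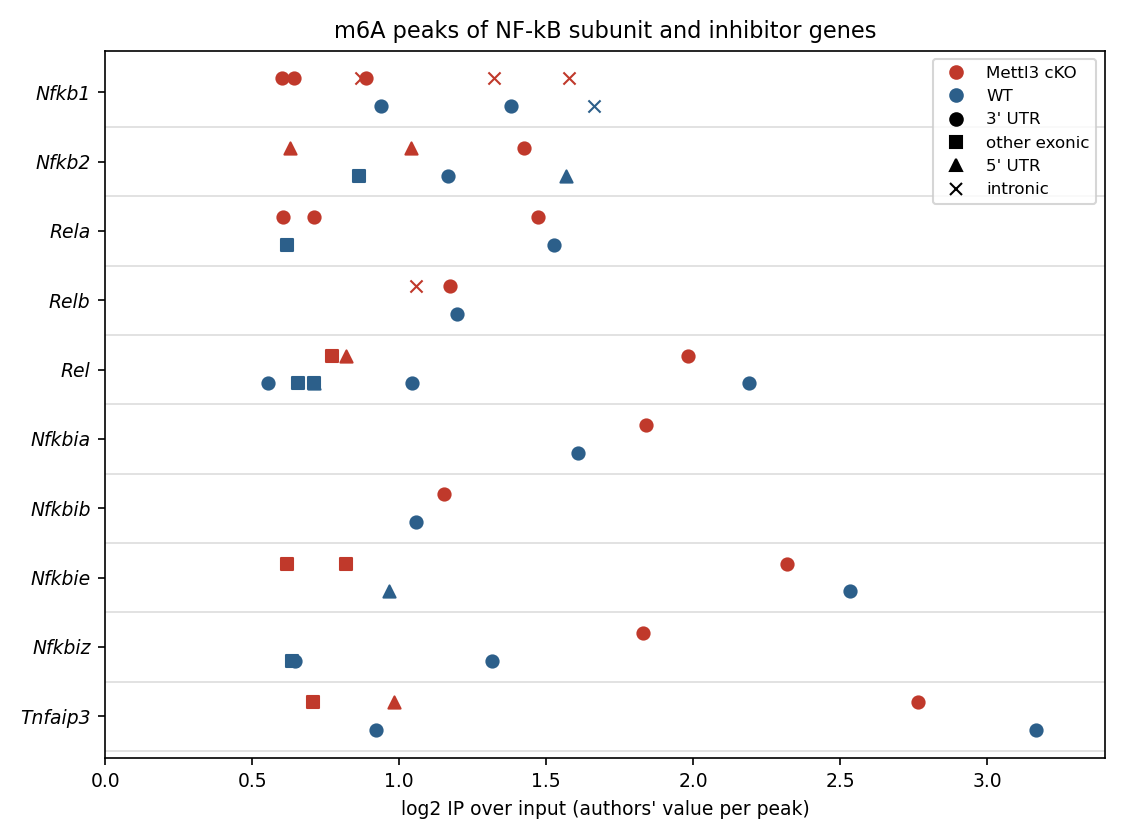
Each point is 1 m6A peak of the named gene, placed by its log2 IP over input (x axis), with the Mettl3 cKO list in red above the WT list in blue and the symbol giving the authors' region. The 3' UTR peaks of Tnfaip3 (2.77 in the cKO, 3.17 in the WT) and Nfkbie (2.32 in the cKO, 2.53 in the WT) lie farthest right.

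By the authors' annotation 14 of 26 peaks lay in the 3' UTR in the cKO (53.8%) and 15 of 24 in the WT (62.5%), near the 55.7% of all cKO peaks and 56.2% of all WT peaks. Other exonic sequence held 4 cKO peaks and 5 WT peaks, the 5' UTR held 4 cKO and 3 WT peaks, and introns held 4 cKO peaks and 1 WT peak. The intronic share was thus 15.4% in the cKO and 4.17% in the WT, against 5.15% of all cKO peaks and 4.58% of all WT peaks, and 3 of the 4 intronic cKO peaks belong to Nfkb1. Placed on the longest coding transcript of each gene, the stop codon itself lay inside a peak of Nfkb2, Rela, Rel, Nfkbib, Nfkbie and Tnfaip3 in both genotypes. The WT peak of Nfkb1 also held it, while the overlapping cKO peak began 1 base after it. In 4 of the 14 cKO peaks named 3' UTR, 2 each in Nfkb1 and Rela, the longest coding transcript has 0 bases of 3' UTR, because the authors named them after a transcript marked for nonsense-mediated decay. All 15 WT peaks named 3' UTR held 3' UTR bases of the longest coding transcript (0 of 15 without). Those of Nfkb2 and Rela were nonetheless also named after a transcript of that kind. The matching shares over all peaks, for the stop codon and for these named transcripts, were not computed.

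Among the subunits, Rel had the strongest peak in both lists, and Nfkb1 came next only through intronic peaks. Rel encodes c-Rel, an activating subunit prominent in immune cells. Its strongest peak, over the stop codon, reached a log2 of 1.98 in the cKO and 2.19 in the WT. Beyond it, the WT list held 3 further peaks in coding sequence or the 5' UTR and 2 farther along the 3' UTR, at 0.55 and 1.05; the cKO list held 1 in coding sequence at 0.77 and 1 in the 5' UTR at 0.82. None of the cKO peaks of Rel lay in the more distant 3' UTR, which is 5418 bases long in this transcript.

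Nfkb1 and Nfkb2 encode precursors that are processed into DNA-binding subunits and that also act as inhibitors of the IkB type. The strongest Nfkb1 peaks were intronic, at 1.58 in the cKO and 1.66 in the WT, and did not overlap. Of the cKO intronic peaks, those at 1.58 and 1.32 lie inside Gm43430, an annotated gene of unclear type on the same strand, and cannot be told apart from it. Near its stop codon Nfkb1 had 0.89 in the cKO and 0.94 in the WT. Nfkb2 had 1.43 in the cKO and 1.17 in the WT over its stop codon. At its 5' end the cKO list held separate peaks of 1.04 and 0.63, and the WT list held a single peak of 1.57. The antisense gene AC114539.1, on the opposite strand, overlaps the 5' end of Nfkb2, and Psd overlaps its 3' end. The libraries mark strand, but whether the counting used it is not given in the sources used here, so reads of these genes and of Nfkb2 may not be told apart.

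Rela encodes p65, the main activating subunit, and Relb the activator of the alternative pathway. The stop codon peak of Rela had 1.47 in the cKO and 1.53 in the WT. For Relb, the terminal 3' UTR peak covered the same bases in both lists and had 1.17 in the cKO and 1.20 in the WT. At these matched peaks the enrichment of both genes was nearly equal in the libraries compared. Peaks without a counterpart were an intronic one of Relb at 1.06 in the cKO, and in Rela 0.71 and 0.60 in the cKO and 0.62 in the WT.

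Of the classical IkB genes, Nfkbie was the most enriched. It encodes IkB epsilon, which holds NF-kB dimers in the cytoplasm, and its stop codon peak reached 2.32 in the cKO and 2.53 in the WT. Nfkbia, which encodes IkB alpha, had a single peak of 300 bases at the very end of its transcript in each list, with 1.84 in the cKO and 1.61 in the WT. Nfkbib, which encodes IkB beta, had a single peak over its stop codon with 1.15 in the cKO and 1.06 in the WT. Ccer2 and Sirt2 overlap Nfkbib on the opposite strand, so the same limit on strand holds for it as for Nfkb2.

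Nfkbiz encodes IkB zeta, a nuclear member that is needed for the induction of some secondary inflammatory genes. Its terminal peak of 250 bases had 1.83 in the cKO and 1.32 in the WT. In addition, the WT list held 2 weaker peaks, at 0.65 in the 3' UTR and 0.63 in coding sequence, with no counterpart in the cKO list.

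Tnfaip3, a deubiquitinase and ubiquitin ligase that shuts down signalling from tumour necrosis factor and Toll-like receptors, was the most enriched of the 10 genes in both lists. Its stop codon peak had a log2 of 2.77 in the cKO and 3.17 in the WT, that is 6.80-fold over input in the cKO and 8.98-fold in the WT. By its strongest peak Tnfaip3 ranked 2879 of 13993 genes in the cKO and 2242 of 13832 in the WT, that is, within the top 20.6% of genes in the cKO and 16.2% in the WT. All 9 others ranked between 4491 and 12943 in the cKO and between 4035 and 12481 in the WT. The WT list also held a peak at the transcript end of Tnfaip3, at 0.92, and the cKO list held peaks of 0.71 in coding sequence and 0.98 in the 5' UTR.

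**Figure D2:**
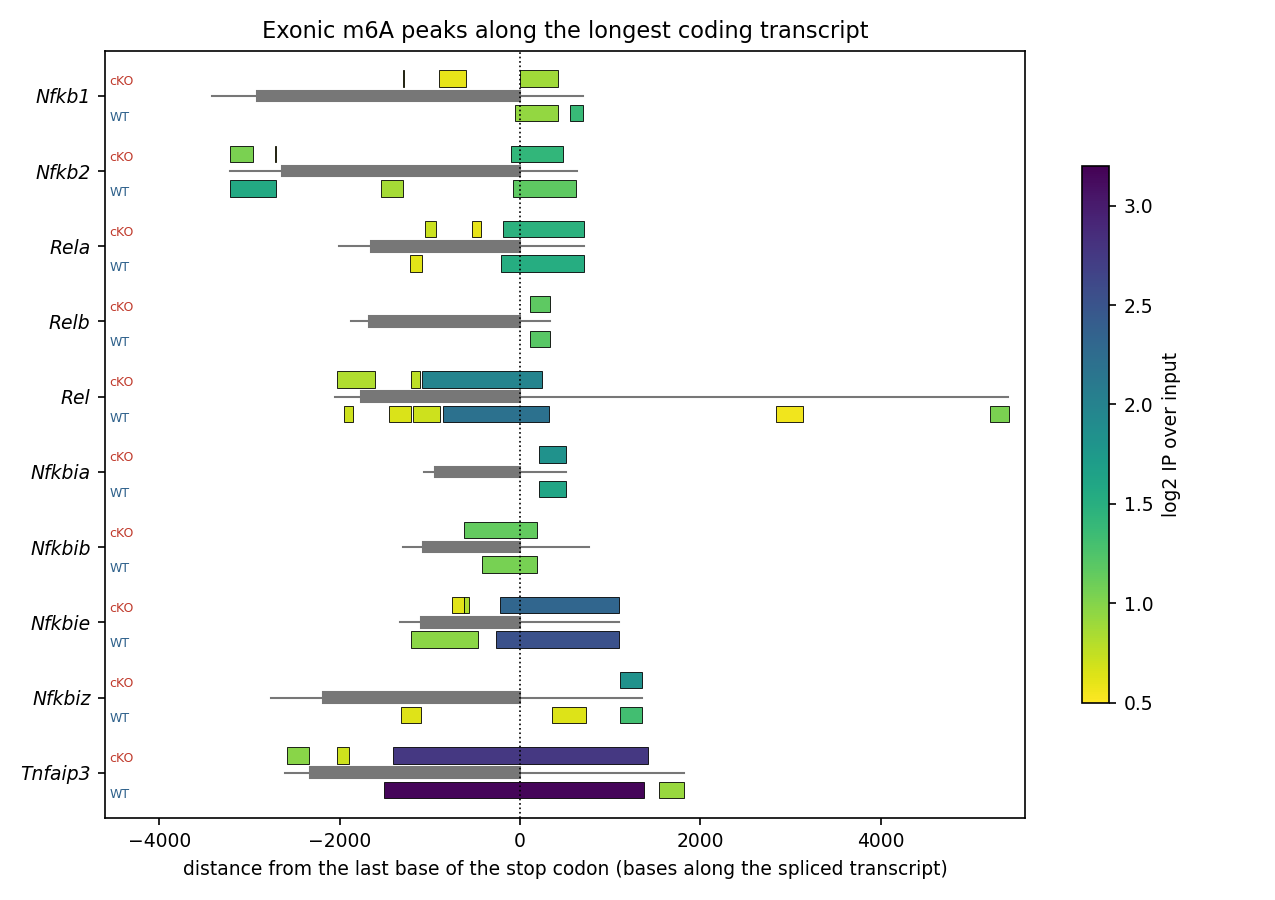
Exonic parts of each m6A peak along the longest coding transcript, in bases from the last base of the stop codon (x axis), with the cKO list above and the WT list below each transcript. Thick grey bars are coding sequence, thin lines are UTRs, and the colour gives log2 IP over input; the stop codon peak of Tnfaip3 is the darkest in both genotypes (2.77 in the cKO, 3.17 in the WT).

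The share of peaks found in both genotypes was 61.5% of the cKO peaks (16 of 26, exact 95% interval 40.6 to 79.8) and 58.3% of the WT peaks (14 of 24, 36.6 to 77.9). Over all peaks it was 71.3% of the cKO list and 73.2% of the WT list, inside both intervals, which cover counting error only. A peak counted as shared when it overlapped one of the other list by at least 1 bp on the same strand. The unshared ones were weak: their median log2 was 0.79 in the cKO (10 peaks) and 0.76 in the WT (10 peaks), against 1.16 in the cKO and 1.26 in the WT for the shared ones. The same held over all peaks, where the medians were 0.99 in the cKO and 0.95 in the WT for unshared peaks and 1.41 in the cKO and 1.31 in the WT for shared ones. The highest unshared values among the NF-kB genes were the intronic Nfkb1 peaks.

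GGAC was found in the exonic sequence of 14 of 22 placed cKO peaks (63.6%, 40.7 to 82.8) and 18 of 23 WT peaks (78.3%, 56.3 to 92.5). Over all peaks, placed on the transcripts named by the authors and not on the longest coding ones, the share was 64.6% in the cKO and 65.1% in the WT. Both lie within the intervals. The placed cKO peaks include one of Nfkb2 with 1 exonic base and one of Nfkb1 with 7. Per kilobase of exonic sequence the NF-kB peaks held 4.53 GGAC in the cKO and 4.41 in the WT, against 4.34 in the cKO and 4.38 in the WT over all peaks. With these unlike placements, the NF-kB genes carried the motif about as often as other peaks did.

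Each gene had 1 peak that overlapped a single peak of the other list, and these 10 peaks were compared by genotype. For Rel this sets a WT peak spanning 100 bp against a cKO peak spanning 13914 bp, so unlike stretches are compared. Overlaps that involved more than 1 peak of a list were left out, among them the Rel stop codon peak and the Nfkb2 5' UTR peak. The difference, cKO minus WT on the log2 scale, was negative in 5 genes and positive in 5, with a median of 0.03. Over all 19387 such peaks the median was 0.04 and 45.2% were lower in the cKO. Tnfaip3 (-0.40) and Nfkbie (-0.21) had the most negative values, Nfkbiz (0.51), Nfkb2 (0.26) and Nfkbia (0.23) the most positive. Nfkb1, Rela, Relb, Nfkbib and the 5' UTR peak of Rel lay between -0.05 and 0.11. When at least 50% of both peaks had to overlap, 11 peaks were matched, 8 of them lower, and the median was -0.053; over all 17809 peaks matched by that rule 47.2% were lower, with a median of 0.03.

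The sign followed the strength of the peak. Among all matched peaks with a WT log2 between 0 and 1, 25.3% were lower in the cKO; between 1 and 2 it was 40.6%, between 2 and 3 it was 75.9%, and between 3 and 4 it was 78.8%. The medians ran along, at 0.14, 0.08, -0.24 and -0.30. Of the NF-kB genes, 1 of 2, 2 of 6, 1 of 1 (Nfkbie) and 1 of 1 (Tnfaip3) were lower in these bands. The values of Tnfaip3 and Nfkbie are thus near those of other peaks of like strength. The WT value enters both the bands and the difference, and its part in this order was not tested.

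**Figure D3:**
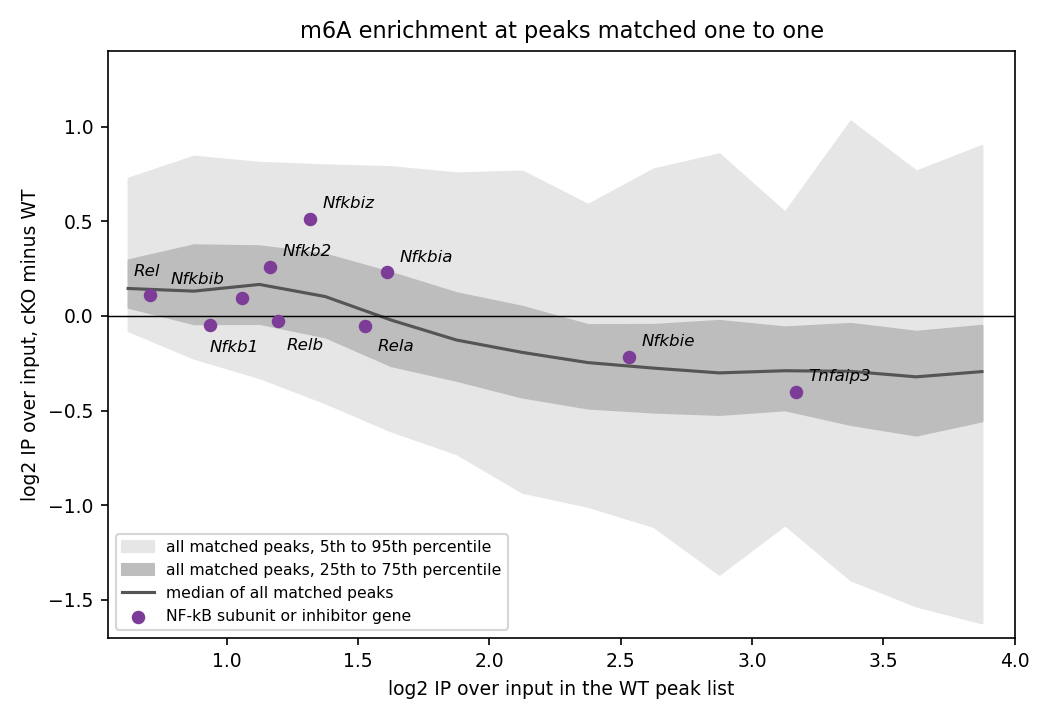
Difference in log2 IP over input, cKO minus WT (y axis), against log2 IP over input in the WT list (x axis) for the matched peak of each of the 10 genes (purple). Grey bands and the line give the percentiles and median of all matched peaks; Nfkbiz (0.51) lies above the darker band, while Nfkbie (-0.21) and Tnfaip3 (-0.40) lie inside it.

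The authors' deposited table of differential peaks, which lists peaks with p below 0.05, held 7 peaks in 6 of the 10 genes. Of all 14818 genes 49.9% have a listed peak there, so 6 of 10 is close to the background. Lower peaks were listed in 4 genes (background 28.9%) and higher peaks in 2 genes (background 28.3%). By peak, 5 of 7 were lower, against 51.1% of all listed peaks. With the authors' adjusted p below 0.05, 2 of 10 genes remained (background 30.8%), 1 lower (background 18.0%) and 1 higher (background 15.3%). These counts lie near the background, so the single peaks are described next.

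The Tnfaip3 stop codon peak was lower in the cKO library. Its log2 enrichment in the authors' deposited table was 2.75 in the cKO and 3.13 in the WT, a difference of -0.37 (adjusted p = 2.7e-15). The peak spans chr10:19001360-19005663 on the minus strand and 2826 exonic bases, 1455 coding and 1371 of 3' UTR. It holds both Tnfaip3 windows printed above. The peak was enriched in both genotypes, so the difference is one of degree. With a single library pair per genotype, the authors' p cannot measure the spread between cultures, here or for the peaks below.

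The terminal Nfkbia peak was higher in the cKO library. The authors' deposited table gives it 1.78 in the cKO and 1.54 in the WT, a difference of 0.24 (adjusted p = 0.00507). The peak covers the last 300 bases of the transcript, chr12:55489410-55489709 on the minus strand, and does not hold the stop codon. These are the only peaks of the 10 genes past the authors' adjusted p of 0.05.

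The other 5 listed peaks passed the authors' p but not their adjusted p. The 5' UTR peak of Nfkb2 (chr19:46304320-46305803) had the largest difference, with 0.82 in the cKO and 1.77 in the WT in the authors' deposited table, a difference of -0.95 (adjusted p = 0.0714). It lies where AC114539.1 overlaps on the opposite strand. The Rel peak at the transcript end (chr11:23736847-23737021) had 0.38 in the cKO and 1.28 in the WT in the authors' deposited table, a difference of -0.90 (adjusted p = 0.135). In both, the cKO value lay below 1.

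Nfkbie had 2 listed peaks, and both were lower. The coding peak (chr17:45556053-45558657) had 0.36 in the cKO and 0.90 in the WT in the authors' deposited table, a difference of -0.55 (adjusted p = 0.0937). The stop codon peak (chr17:45560471-45563169) had 2.28 in the cKO and 2.53 in the WT in the authors' deposited table, a difference of -0.25 (adjusted p = 0.133). The terminal Nfkbiz peak (chr16:55811375-55811624) was higher, with 1.80 in the cKO and 1.36 in the WT in the authors' deposited table, a difference of 0.45 (adjusted p = 0.167). No difference in the 10 genes reached 1 on the log2 scale (0 of 7), whereas 3683 of all 10355 listed peaks did.

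Position in the transcript ran with the sign. Of the 2663 listed differential peaks of all genes that hold a stop codon 69.4% were lower in the cKO, as were the 2 such peaks here, in Tnfaip3 and Nfkbie. Of the 1241 that reach the transcript end with at most 300 exonic bases and no stop codon 22.4% were lower. The Nfkbia and Nfkbiz peaks are of this second kind and were higher, while the Rel peak is of the same kind and was lower. These position classes were chosen after the values had been seen, and over all genes they use the transcript named by the authors. The end peaks also differed in content: 35.1% held GGAC, against 89.7% of those with the stop codon, a share that also depends on length. Per kilobase they held 2.46 GGAC, against 4.66, and their median WT log2 was 1.04, against 2.10. The part of strength, motif content and position in these differences was not tested.

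**Figure D4:**
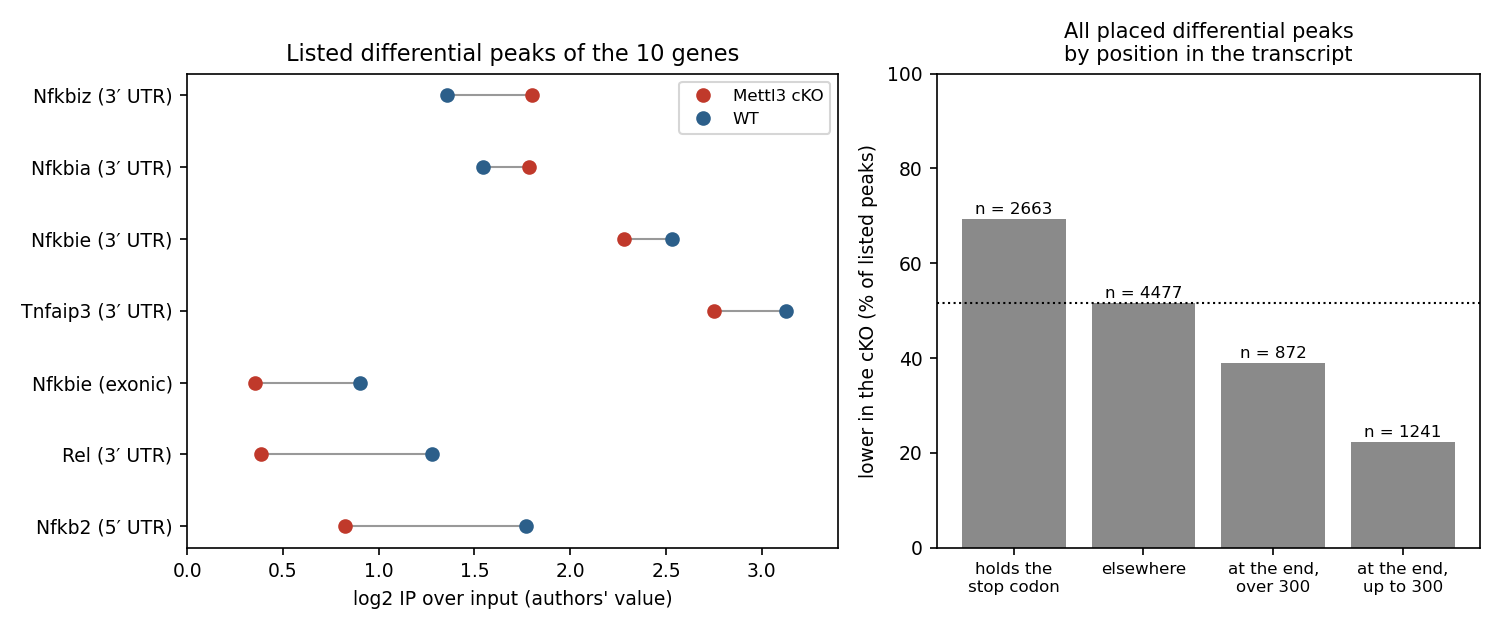
Left, log2 IP over input (x axis) of the 7 differential peaks in the authors' deposited table, cKO in red and WT in blue; 2 peaks (Nfkbiz and Nfkbia) were higher in the cKO and 5 lower. Right, percent of all placed differential peaks that were lower in the cKO (y axis), by position in the transcript; bars give 69.4% for peaks with the stop codon, 51.6% elsewhere, 39.0% for end peaks of over 300 exonic bases and 22.4% for end peaks of up to 300, and the dotted line is 51.6% over all.

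Transcript levels were read from the input libraries, in FPKM (fragments per kilobase of transcript, scaled to library size), for the 6 of the 10 genes with a value. Values are held only for genes with a listed differential peak, so the 6 are the genes named in the paragraphs on those peaks. All 6 were lower in the cKO (6 of 6), against 54.2% of 6079 genes with a mean of at least 1 FPKM. The median difference was -0.23 on the log2(FPKM + 1) scale, against -0.02 over all these genes. The 6 values ran between -0.40 and -0.13, and the q of each in the authors' deposited table was 1. With a difference of at least 0.32 on that scale, 1 of 6 was lower (Nfkb2; background 7.24%) and 0 of 6 were higher (background 6.56%). The input levels of Nfkb1, Rela, Relb and Nfkbib were not analysed here.

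Nfkb2 had 12.5 FPKM in the cKO and 16.8 FPKM in the WT, a difference of -0.40 on the log2(FPKM + 1) scale (p = 0.530 in the authors' deposited table). It lay at percentile 4.52 of all genes from the most lowered. Rel had 6.10 FPKM in the cKO and 6.77 FPKM in the WT (-0.13, p = 0.837 in the authors' deposited table). Of the 2 subunits with a value, Nfkb2 was thus the further from the median gene.

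Nfkbia was by far the most abundant of the 6, at 94.4 FPKM in the cKO and 114 FPKM in the WT, a difference of -0.27 (p = 0.697 in the authors' deposited table). Its WT level stood at percentile 95.6 of genes. Nfkbie had 7.52 FPKM in the cKO and 9.14 FPKM in the WT (-0.25, p = 0.684 in the authors' deposited table). Nfkbiz had 15.3 FPKM in the cKO and 17.9 FPKM in the WT (-0.21, p = 0.748 in the authors' deposited table). The 3 IkB genes with a value thus differed by nearly the same amount.

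Tnfaip3 had 17.2 FPKM in the cKO and 18.8 FPKM in the WT (-0.13, p = 0.857 in the authors' deposited table), the smallest difference of the 6 beside Rel. Nfkb2, which had the largest m6A difference of the listed peaks, also had the largest level difference. In Nfkb2, Rel, Nfkbie and Tnfaip3 the listed peaks and the level were all lower, while in Nfkbia and Nfkbiz the peak was higher and the level lower. The input library gives the level and is also the denominator of the enrichment, so the measures are not independent. Because all 6 levels were lower, no relation between m6A and level can be read from these genes.

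Cell type markers also differed between the input libraries. Of 10 macrophage markers 9 had a value, none at 0, and their FPKM summed to 3354 in the cKO and 4918 in the WT; 7 of the 9 were lower. Lyz2, a lysozyme gene of myeloid cells, made up most of that sum, at 1980 FPKM in the cKO and 3393 FPKM in the WT. The fall of the sum thus mainly follows this 1 gene. Only the cKO carries LysM-cre, and its part in the Lyz2 level was not tested. Csf1r had no input value. Of 9 mesenchymal markers 8 had a value, none at 0, summing to 496 in the cKO and 319 in the WT. Of the 8, 6 were higher, as were 5 of the 6 with at least 1 FPKM. Fn1 made up most of both sums, at 300 FPKM in the cKO and 209 FPKM in the WT. Epithelial markers had a value for 1 of 7 (Krt19, a keratin, 10.8 FPKM in the cKO and 7.05 FPKM in the WT), T and B cell markers for 2 of 6 (sum 0.642 in the cKO and 1.10 in the WT), and neutrophil markers for 1 of 5 (S100a8, 13.7 in the cKO and 12.3 in the WT). Hence the macrophage label fits the abundant macrophage markers, while mesenchymal markers were present too. In bulk RNA, fewer cells of a type and less RNA per cell cannot be told apart, and the part of these markers' cells in the NF-kB values was not tested.

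The rest of the pathway was read from gene lists. The 2 measured other IkB genes went opposite ways: Bcl3, a nuclear IkB protein, had 13.8 FPKM in the cKO and 16.5 FPKM in the WT (-0.24), and Nfkbil1 had 5.99 FPKM in the cKO and 4.96 FPKM in the WT (0.23). Of the IkB kinases and the kinases above them 7 of 10 had a value, 3 higher and 4 lower, with a median of -0.0019. The widest differences there were in Ikbke (8.995 FPKM in the cKO, 10.4 FPKM in the WT, -0.19) and Map3k14, the kinase of the alternative pathway (1.72 FPKM in the cKO, 1.43 FPKM in the WT, 0.16). Tbk1 (-0.14) and Map3k7, the kinase TAK1 (-0.04), followed. The kinases thus lay near the median of all genes, -0.02.

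Of the adaptors and ubiquitin ligases 12 of 18 had a value, 3 higher and 9 lower, with a median of -0.12. Irak4, a kinase that works below Toll-like receptors, had 2.69 FPKM in the cKO and 4.04 FPKM in the WT (-0.45). Traf3 (-0.22), Ripk1 (-0.18) and Traf5 (-0.18) came next. Of Tnfaip3 partners and other negative regulators 12 of 16 had a value, 2 higher and 10 lower, with a median of -0.16. Tnfaip2 had 34.6 FPKM in the cKO and 52.0 FPKM in the WT (-0.57). Its place among partners or negative regulators was not examined here. Zc3h12a, the endoribonuclease Regnase-1, had 44.2 FPKM in the cKO and 56.7 FPKM in the WT (-0.35). The Tnfaip3-binding adaptors differed, with Tnip1 at -0.28 and Tnip2 at 0.33. Over all genes 54.2% were lower, and whether the adaptors or the negative regulators differ from that share was not tested.

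Textbook NF-kB target genes held the widest differences. Of 34 genes 24 had a value and 23 passed 1 FPKM, of which 2 were higher and 21 lower, with a median of -0.27, and 11 were lower by at least 0.32. Among all genes 54.2% were lower and 7.24% were lower by at least 0.32. The chemokine Cxcl1 had 19.98 FPKM in the cKO and 45.8 FPKM in the WT (-1.16), the transcription factor Irf1 had 21.4 FPKM in the cKO and 47.7 FPKM in the WT (-1.12), and Cxcl3 had 30.0 FPKM in the cKO and 64.3 FPKM in the WT (-1.07). The cytokine Il6 had 3.96 FPKM in the cKO and 9.15 FPKM in the WT (-1.03). Their p in the authors' deposited table lay between 0.0734 and 0.101, and q was 1. These 4 targets differed more widely than any of the 6 NF-kB genes with a value.

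**Figure D5:**
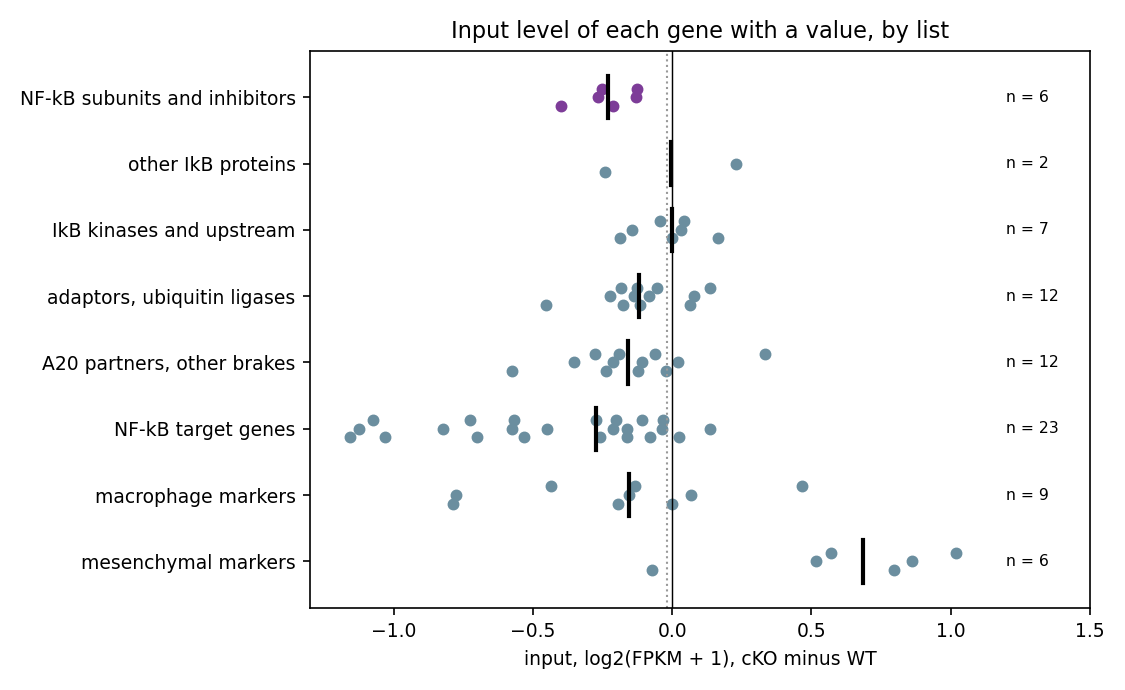
Difference in input level, log2(FPKM + 1), cKO minus WT (x axis), for each gene with a mean of at least 1 FPKM, by list; bars are list medians and the dotted line is the median of all genes (-0.02). All 6 NF-kB subunit and inhibitor genes lie below 0, the target genes reach -1.16 (Cxcl1), and the mesenchymal markers have a median of 0.68.

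In the same lists the m6A differences went both ways. Over all genes, 51.1% of the listed peaks were lower in the cKO, as were 54.3% of those past the adjusted p of 0.05. Whether any list differs from these shares was not tested. The authors' deposited table listed 9 differential peaks in the kinases, 3 higher and 6 lower, of which 4 passed the adjusted p of 0.05, all 4 lower. For the adaptors and ligases the authors' deposited table listed 20 peaks, 8 higher and 12 lower, with 3 higher and 6 lower past the adjusted p. For Tnfaip3 partners and other brakes the authors' deposited table listed 21 peaks, 11 higher and 10 lower, with 3 higher and 5 lower past it. The target genes had 31 listed peaks in the authors' deposited table, 17 higher and 14 lower, with 12 higher and 11 lower past it. Bcl3 had 1 listed peak that was higher and Nfkbil1 had 1 that was lower, and neither passed.

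Some adaptors that work beside Tnfaip3 had 3' UTR peaks with differences of like size. Traf6, a ubiquitin ligase below Toll-like receptors, had a 3' UTR peak in the authors' deposited table at a log2 of 3.43 in the cKO and 3.90 in the WT (-0.47). A 3' UTR peak of Traf1 had 3.50 in the cKO and 3.97 in the WT in the authors' deposited table (-0.48), and one of Tnip1 had 1.95 in the cKO and 2.31 in the WT (-0.36). All 3 passed the authors' adjusted p, and the 3 genes were chosen after their values had been seen. Traf6 had 2 further, weaker 3' UTR peaks in the authors' deposited table, and both were higher, by 0.43 and 1.07. Traf1 also had a listed exonic peak that was lower (-0.36) and an intronic one that was higher (1.67). In the list of Tnfaip3 partners and other brakes, the listed peaks of Tnip2 (0.31) and Tax1bp1 (0.26) were higher. Those of Tnip3 and Rnf11 went both ways. The 3' UTR peak of Cxcl1 was higher, with 1.53 in the cKO and 0.98 in the WT in the authors' deposited table (0.54).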

How the data were processed

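The labels give 4 libraries, 1 IP and 1 input per genotype, so no test was run. The submitters' processing notes name mm10, fastp, HISAT2, HOMER, ChIPseeker, StringTie and edgeR, without role, order or version. Per the file headers, the authors deposited a log2 IP over input with a p-value per peak and genotype, a table of differential peaks (log2 in each genotype, their difference, p-value), and input FPKM for genes with such a peak. The lists hold peaks with p below 0.05. Starts count from 0 in the files and are given 1-based.

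From these, peaks were matched on the same strand (at least 1 bp). Peaks of the 10 genes were placed on the longest basic coding GENCODE M21 transcript. For shares over all peaks, and for the position classes, the transcript named by the authors was used. GGAC was searched on the transcript strand. The kappaB consensus was searched on both strands of RefSeq promoters, a step added after the values had been seen. Input differences are log2(FPKM + 1), cKO minus WT, for mean FPKM of at least 1, and understate changes of low genes. Intervals are exact binomial (Clopper-Pearson, 95%) and cover counting error only. Python 3.11.15, pandas 2.3.3, NumPy 2.4.6 and SciPy 1.17.1 were used, and the steps were tested on simulated data. The genes named were the 10 NF-kB genes and, of each list, up to 4 by absolute input difference; others are marked in the text. These members and lists were chosen with earlier results of these data known. Alternatives covered p, fold, overlap, pseudocount, filter, centring and motif.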

Additional observations from a re-analysis of the deposited data

How the results depend on the processing

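With a minimum of 2-fold enrichment, 13 peaks remained in the cKO and 13 in the WT, against 26 and 24 without it; the authors' adjusted p below 0.05 left 26 and 24. The median difference at matched peaks was 0.03 and turned to -0.053 when at least 50% of both peaks had to overlap; which peaks count as matched changes with that rule, from 10 to 11. Of the differential peaks, 2 higher and 5 lower, the adjusted p below 0.05 left 1 higher and 1 lower, and a minimum of 1 for the absolute log2 difference left 0 higher and 0 lower. The input median of -0.23 was -0.25 with a pseudocount of 0.1 and -0.21 after centring on all genes. At 1.5-fold 0 genes were lower in the input, against 1 at the lower threshold of 0.32 on the log2 scale. GGACT in place of GGAC was in 31.8% of cKO and 34.8% of WT peaks. The shares of shared peaks stayed inside their intervals under both other overlap rules. All 24 recomputed input differences of single genes kept their sign, between -0.42 and -0.11. Leaving out a library was not possible with 1 per group. No paired analysis was possible because each genotype has 1 IP and 1 input library and no result comes from a test. Depth is unknown, so no limit of detection is given.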
